A study of Mus musculus with 24 samples.

Results

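AMPA and NMDA receptors are the ion channels that carry most fast excitatory transmission in the brain. The genes described here are 10 mouse subunit genes selected by Ensembl ID, 4 of AMPA receptors (Gria1, Gria2, Gria3 and Gria4) and 6 of NMDA receptors (Grin1, Grin2a, Grin2b, Grin2c, Grin2d and Grin3a). Of these, 9 had a row among the 18057 genes of the deposited table, and Gria2 was not analysed here. The symbols are those given with the selection, because the table lists IDs only.

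Both receptors are tetramers opened by glutamate. AMPA receptors give the fast current of a synapse, and their number at the synapse follows its recent activity. NMDA receptors admit calcium when glutamate binds while the cell is depolarized, pair the obligatory subunit GluN1 with GluN2 or GluN3 subunits, and in rodent forebrain pass from mainly GluN2B to more GluN2A in the first weeks after birth.

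The study measured frontal lobe RNA of 24 mice on Affymetrix arrays, with 6 arrays in each of 4 groups that differ in Arg1, the gene of arginase 1, the enzyme that ends the urea cycle in liver. WT were wild types, HE were Arg1 heterozygotes, KO were Arg1 knockouts, and TR were Arg1 knockouts that had received a viral treatment. The sources used here do not give the vector, its dose, the day of treatment, the strain, the sex or the tissue in which Arg1 was deleted. Batch 1 of the labels held 3 WT and 3 KO arrays, batch 2 held 3 HE and 3 TR arrays, and in both each group had 1 array at postnatal days 13, 14 and 15. All 4 groups were present in batch 3, with 3 arrays each at day 14. TR can therefore be set against KO or WT, and HE against WT or KO, inside batch 3 alone. The titles of the batch 3 arrays begin with BB or CC in KO and with EE in WT, HE and TR. What these letters stand for is not given. Inside batch 3, a difference between KO and another group cannot be told apart from one between these title series. The values are log2 intensities, on which a difference of 1 is a 2-fold change, and they track polyadenylated transcripts of a piece of tissue. In such a bulk sample, fewer cells of a type and less RNA per cell cannot be told apart.

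The array medians lay between 6.71 and 6.79. Batch means were nearly equal, with a median absolute difference of 0.0168 over all genes and at most 0.0964 for any of the 9 subunits, and in limma no gene (0%) reached an unadjusted p of 0.05 for batch. That pattern is what values adjusted for batch before deposit would show, although the labels mention no such step. If such a step was taken, the model does not count it, and its effect on the p values was not tested. Levels are therefore compared inside batches, and the model of the differences (limma) has terms for group and batch. Of all arrays, KO replicate 1 of batch 3 stood apart on the first principal component, which held 17.8% of the variance: it scored -27.99, against -11.55 to -5.03 for the other KO arrays. Results that change without it are given with that value. The tissue label was not checked against cell type markers, because the table pairs no other ID with a name.

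Gria1 was higher in KO than in WT, by 0.35 ± 0.0636 on the log2 scale (SE, n = 6 against 6), or 1.27-fold. The gene (ENSMUSG00000020524) encodes GluA1, the AMPA receptor subunit best known for being added to synapses during potentiation. In batch 1 its WT values were 10.31, 10.22 and 10.01 at days 13, 14 and 15, and its KO values were 10.62, 10.49 and 10.51. In batch 3 the WT arrays read 10.25, 10.25 and 10.30, and the KO arrays 10.70, 10.57 and 10.54. Every KO array was above every WT array, within each batch and over both, as in 1.46% of all genes over the 6 arrays of each group. No other subunit was called, that is, had a Benjamini-Hochberg adjusted p under 0.05 over all genes. Thus 1 of 9 subunits was called higher in KO and 0 lower, against 3.49% of all genes called higher and 4.48% called lower (7.97% in either direction). For Gria1 the limma adjusted p was 0.00106, with an interval of the difference from 0.22 to 0.48 at 95%.

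The Gria1 difference was of like size in both batches that hold KO and WT, at 0.36 in batch 1 and 0.33 in batch 3. KO arrays lay above WT arrays without overlap in 11% of all genes in batch 1, in 6.84% in batch 3 and in 2.17% in both. In batch 1, 3 of 9 subunits (Gria4, Grin2a and Grin2c) lay below WT without overlap, as did 13.7% of all genes. No subunit lay below WT without overlap in both batches (2.55% of all genes), over all 6 arrays (1.71%) or in batch 3 (9.02%). The test of the change between batches gave -0.03 ± 0.129 (limma adjusted p = 0.965, interval -0.29 to 0.24). With any 1 of the 24 arrays left out, Gria1 stayed called (0.31 to 0.37, limma adjusted p from 0.00057 to 0.00447). With batch 3 fitted alone it was not (0.33, limma adjusted p = 0.0965).

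**Figure D1:**
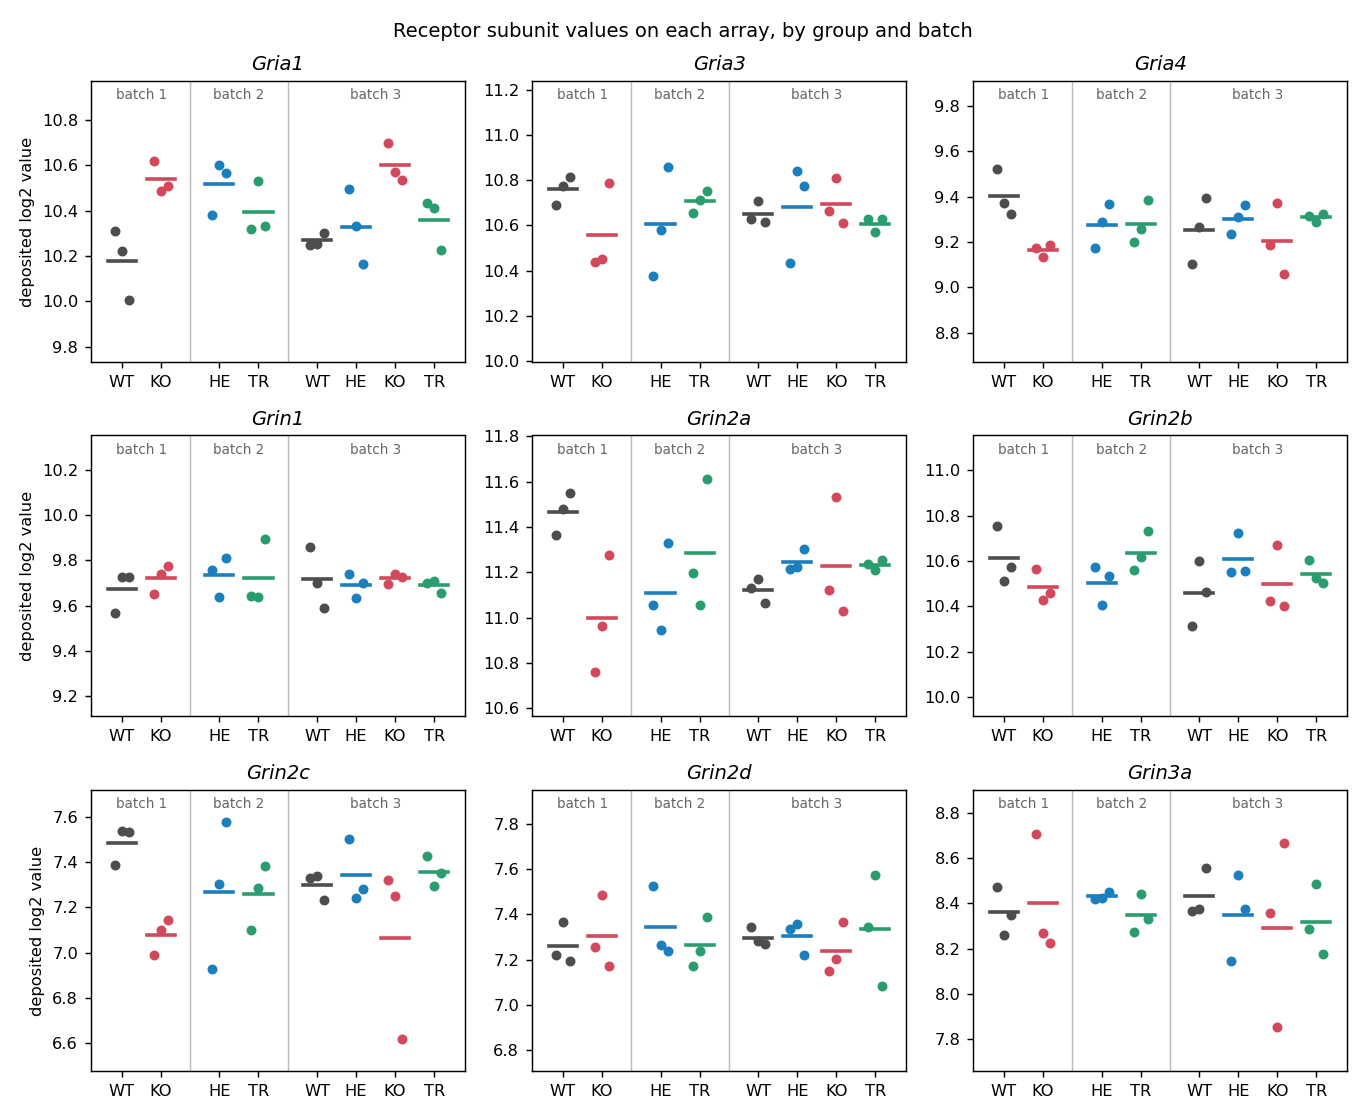
Deposited log2 value of each of the 9 subunits (vertical axis, an equal span of log2 units in every panel) on each array, by group and batch. Points are single arrays and bars the mean of 3. For Gria1 the KO points lie above the WT points in batches 1 and 3 (as in 2.17% of all genes). In batch 3 they also lie above the HE and TR points (6.73% and 6.47% of all genes, each pair alone).

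In batch 3, the only batch with all groups, the order of the mean Gria1 level was KO (10.60 ± 0.0854, SD, n = 3), TR (10.36 ± 0.114), HE (10.33 ± 0.165) and WT (10.27 ± 0.0305). KO arrays lay above those of WT, HE and TR without overlap, as in 6.84%, 6.73% and 6.47% of all genes for each pair alone. The share of all genes for which this held against every group at once was not computed. These KO arrays also carry other title letters than the rest of batch 3. TR arrays read 10.43, 10.41 and 10.23 and HE arrays 10.49, 10.33 and 10.16, so TR, HE and WT overlapped and their order is within the spread of the arrays. In batch 2 Gria1 read 10.38, 10.60 and 10.57 in HE and 10.32, 10.53 and 10.33 in TR at days 13, 14 and 15, again with overlap.

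Gria4 (ENSMUSG00000025892) encodes GluA4, an AMPA receptor subunit prominent in some inhibitory neurons. Its values in batch 1 were 9.52, 9.37 and 9.32 in WT and 9.17, 9.13 and 9.19 in KO, with every KO array below every WT array. In batch 3 the WT arrays read 9.10, 9.26 and 9.39 and the KO arrays 9.19, 9.37 and 9.06, and the groups overlapped. Over both batches KO minus WT was -0.14 ± 0.0600 (limma adjusted p = 0.149), with -0.24 in batch 1 and -0.05 in batch 3. It passed the threshold only where WT replicate 1 (limma adjusted p = 0.0466) or KO replicate 2 (0.0314), both of batch 3, was left out.

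Gria3 (ENSMUSG00000001986), which encodes the AMPA receptor subunit GluA3, gave -0.08 ± 0.0797 (limma adjusted p = 0.643). In batch 1 it read 10.69, 10.77 and 10.81 in WT and 10.44, 10.45 and 10.79 in KO, in batch 3 10.63, 10.71 and 10.62 in WT and 10.66, 10.81 and 10.61 in KO, and the groups overlapped in both.

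Among NMDA receptor subunits none was called. Grin2c came nearest, with -0.32 ± 0.103 in KO against WT (limma adjusted p = 0.0546, interval -0.53 to -0.11). The gene (ENSMUSG00000020734) encodes GluN2C, a subunit of slow, low-conductance receptors best known from cerebellar granule cells. In batch 1 it read 7.39, 7.53 and 7.53 in WT and 6.99, 7.10 and 7.15 in KO, without overlap. In batch 3 it read 7.33, 7.34 and 7.23 in WT and 7.32, 7.25 and 6.62 in KO, where KO replicate 3 was the lowest of all 24 arrays and the other KO arrays lay within the WT range. The differences were -0.41 and -0.24. Of 38 alternative settings, 10 put Grin2c past the threshold, among them the fit without KO replicate 1 (limma adjusted p = 0.0210) and the fit of batch 1 alone (0.0331).

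Grin2a (ENSMUSG00000059003) encodes GluN2A, the subunit that gains ground as forebrain synapses mature. Its differences had opposite signs in the 2 batches. In batch 1 it read 11.36, 11.48 and 11.55 in WT against 10.76, 10.96 and 11.28 in KO, with every KO array below every WT array and a difference of -0.47 (limma adjusted p = 0.0375 in batch 1 alone). In batch 3 WT arrays read 11.13, 11.17 and 11.06 and KO arrays 11.12, 11.53 and 11.03, with overlap and a difference of 0.11. The test of this change between batches gave 0.57 ± 0.193 with an unadjusted p of 0.0072 in limma and an adjusted p of 0.447. No gene of the table was called in it, 8.81% had an unadjusted p under 0.05, and Grin2a was 1 such among the 9 subunits. Over both batches KO minus WT was -0.18 ± 0.111 (limma adjusted p = 0.375). The batches also differ in age, days 13 to 15 in batch 1 and day 14 in batch 3. At day 14, the age they share, batch 1 has 1 array per group, 11.48 in WT and 10.96 in KO. In batch 3 the KO arrays also carry other title letters than the WT arrays. The cause of the change between batches was not tested.

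The remaining NMDA receptor genes lay close to 0. Grin1 (ENSMUSG00000026959), the gene of the obligatory subunit GluN1, differed by 0.03 (interval -0.08 to 0.13). Grin2b (ENSMUSG00000030209), of the early forebrain subunit GluN2B, differed by -0.04 (interval -0.18 to 0.09). Grin2d (ENSMUSG00000002771), of GluN2D, a subunit most abundant early in development, differed by -0.01 (interval -0.17 to 0.15). Grin3a (ENSMUSG00000039579) encodes GluN3A, a glycine-binding subunit that lowers the calcium passed by the receptor, and it differed by -0.05 (interval -0.26 to 0.16). The intervals are those of the log2 difference at 95%. Over the 9 subunits the median difference was -0.05, against -0.01 over all genes, with 7 below 0 and 2 above 0. An unadjusted limma p under 0.05 was found for 3 of 9 (Gria1, Gria4 and Grin2c), against 21.6% of all genes.

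**Figure D2:**
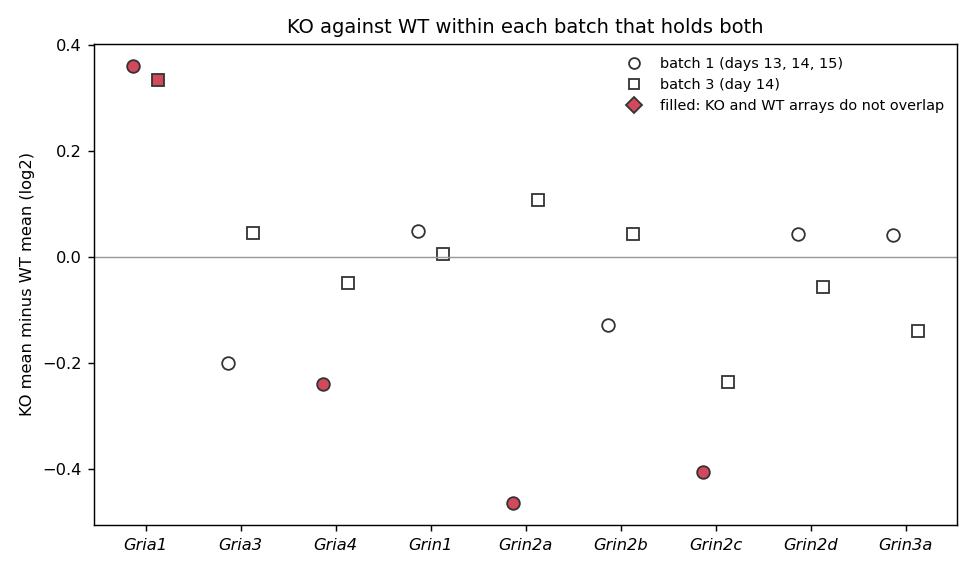
Mean of the 3 KO arrays minus mean of the 3 WT arrays (log2) for each subunit in batch 1 (circles, days 13 to 15) and batch 3 (squares, day 14). Filled marks are differences in which KO and WT arrays did not overlap. Gria1 is filled in both batches, at 0.36 and 0.33, while Grin2a is at -0.47 in batch 1 and 0.11 in batch 3.

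KO against HE asks the same question with a control that carries 1 intact Arg1 copy. None of the 9 subunits was called, against 1.98% of all genes (0.936% higher and 1.04% lower). Gria1 again had the highest value, at 0.24 ± 0.0779 (limma adjusted p = 0.117, interval 0.08 to 0.40). In batch 3 the KO arrays lay above the HE arrays by 0.27 without overlap, as in 6.73% of all genes, although the gap between the lowest KO and the highest HE array was only 0.0432. No subunit lay below HE in that way (8.7% of all genes). Grin2c gave -0.33 ± 0.126 (limma adjusted p = 0.205) and Gria4 -0.15 ± 0.0735 (0.372). The KO arrays are the same ones as in KO against WT, so the 2 sets of values are not independent.

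TR and KO differ by label in the viral treatment. Both are present in batch 3 alone, where their titles also begin with different letters, so treatment and title series cannot be told apart there. None of the 4 groups is labelled as given a control virus. Gria1 was lower in TR, by -0.29 ± 0.0779 on the log2 scale, so that KO was 1.22-fold above TR (limma adjusted p = 0.0415, interval -0.45 to -0.13). It was the only subunit called, 0 of 9 higher and 1 of 9 lower, against 1.63% of all genes called higher and 1.48% lower (3.11% in either direction). In batch 3 every TR array was below every KO array, with the highest TR array at 10.43, the lowest KO array at 10.54 and a gap of 0.103. Such full separation downward was found in 6.47% of all genes.

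The call on Gria1 in TR against KO did not hold under all settings. Within batch 3 alone the difference was -0.25 (limma adjusted p = 0.210). It was lost with 1 array left out in 14 of 24 cases, with limma adjusted p from 0.0509 to 0.121 and the difference between -0.33 and -0.26 over all 24. The arrays were WT replicates 1, 2, 3, 5 and 6, HE replicates 2, 3, 5 and 6, KO replicate 1, and TR replicates 2, 3, 4 and 6. Without KO replicate 1, the array that stood apart, it was -0.26 (limma adjusted p = 0.121). Without a batch term it was -0.19 (0.245), and with batch as a random block -0.17 (0.456). Batch means were nearly equal although batches 1 and 2 hold different groups, and how this bears on both fits was not tested. The sign was negative under all 37 alternatives.

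The other subunits in TR against KO were not called, and none lay above KO without overlap in batch 3, where 10.3% of all genes did. Grin2c gave 0.33 ± 0.126 (limma adjusted p = 0.159), with batch 3 values of 7.43, 7.29 and 7.35 in TR. These overlapped with the KO arrays. Gria4 gave 0.15 ± 0.0735 (0.278), with 9.31, 9.29 and 9.33 in TR of batch 3. Grin2a gave 0.20 ± 0.136 (0.485) and Grin2b 0.14 ± 0.0787 (0.378). Inside batch 3, the only batch with both groups, these differences were smaller, at 0.0049 for Grin2a and 0.0438 for Grin2b. Gria3, Grin1, Grin2d and Grin3a lay between -0.04 and 0.04. An unadjusted limma p under 0.05 was found for 3 of 9, against 17.8% of all genes. This comparison and KO against WT use the same KO arrays. Through the batch terms, KO minus WT of batch 1, which holds no TR array, also enters TR minus KO with reversed sign. Opposite signs in the 2 comparisons are thus in part given by the arrays and the model. Gria1 was 0.35 and -0.29, Grin2c -0.32 and 0.33, and Gria4 -0.14 and 0.15. Inside batch 3, where the KO arrays are still shared, Gria1 was 0.33 and -0.25, Grin2c -0.24 and 0.29, and Gria4 -0.05 and 0.11.

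In the model of all arrays, TR, HE and WT were close to each other for all 9 subunits. TR against WT had 0 subunits called (0.00554% of all genes), HE against WT 0 (0.00554%) and TR against HE 0 (0%), and by limma 0 of 9 subunits in each had an unadjusted p under 0.05, against 5.72%, 4.27% and 4.39% of all genes. For Gria1 the values were 0.06 ± 0.0779 in TR against WT (interval -0.10 to 0.22), 0.11 ± 0.0779 in HE against WT (interval -0.06 to 0.27) and -0.05 ± 0.0636 in TR against HE (interval -0.18 to 0.08). Over the 9 subunits the model differences ran from -0.08 to 0.09 in TR against WT, from -0.07 to 0.11 in HE against WT and from -0.06 to 0.08 in TR against HE. Single batches gave wider ranges. Inside batch 3, TR against WT ran from -0.12 (Grin3a) to 0.11 (Grin2a), and HE against WT from -0.08 (Grin3a) to 0.15 (Grin2b). Inside batch 2, TR against HE ran from -0.12 (Gria1) to 0.18 (Grin2a). Intervals that reach 0.27 for Gria1 do not show the groups to be equal.

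In batch 3 Grin2a showed narrow groups outside KO. It read 11.24, 11.21 and 11.26 in TR, 11.22, 11.22 and 11.30 in HE, and 11.13, 11.17 and 11.06 in WT. TR and HE arrays all lay above the WT arrays, by 0.11 (as in 4.81% of all genes) and 0.12 (4.43%). No subunit was below WT without overlap in either (3.3% and 4.66% of all genes). TR and HE themselves overlapped for all 9 subunits in batch 2 (7.42% of all genes were fully above and 5.44% fully below) and in batch 3 (4.69% and 2.98%). The test of TR against HE between batches 3 and 2 called no subunit (0% of all genes, with 5.06% at an unadjusted limma p under 0.05). Over the model of all arrays the Grin2a differences from WT were 0.02 and -0.07 (limma adjusted p = 0.994 and 0.997).

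**Figure D3:**
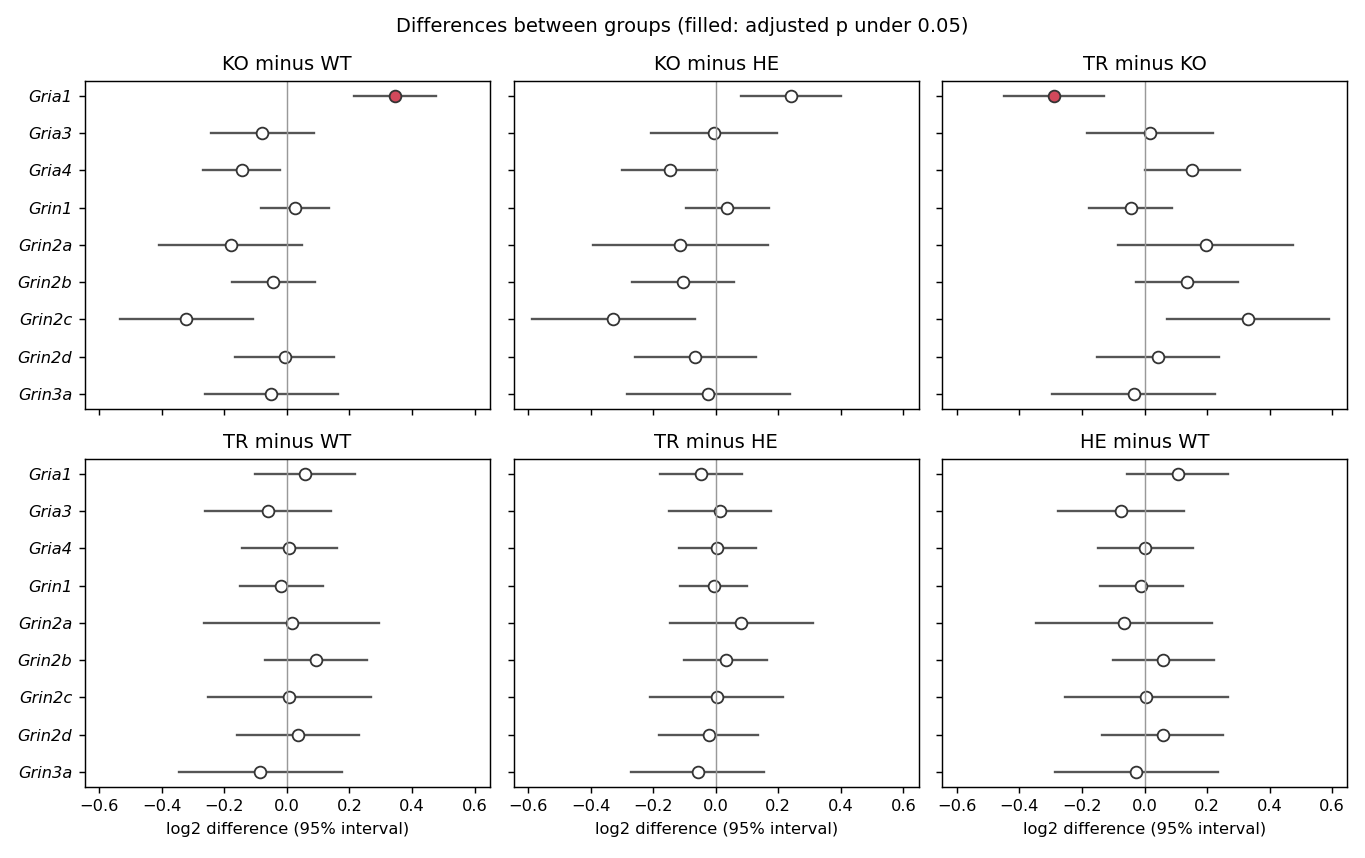
Log2 difference (horizontal axis) of each subunit in 6 comparisons from the limma model of all 24 arrays, with 95% intervals as lines. Filled points have an adjusted p under 0.05 over all genes, and only Gria1 is filled, at 0.35 in KO minus WT and at -0.29 in TR minus KO.

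Postnatal days 13 to 15 were compared over the 12 arrays of batches 1 and 2, with 1 slope common to the 4 groups. None of the 9 subunits was called, against 1.43% of all genes. The highest slopes were those of Grin2a (0.17 ± 0.0432 log2 per day, limma adjusted p = 0.0651), Grin2c (0.15 ± 0.0419, 0.0859) and Gria3 (0.13 ± 0.0335, 0.0702), followed by Grin1 (0.07 ± 0.0305, 0.250). An unadjusted limma p under 0.05 was found for these 4 of 9, against 15.9% of all genes. The other 5 slopes ran from -0.06 to 0.02.

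For Grin2a the day 13, 14 and 15 values were 11.36, 11.48 and 11.55 in WT, 10.76, 10.96 and 11.28 in KO, 11.06, 10.95 and 11.33 in HE and 11.20, 11.05 and 11.61 in TR. Day 15 was the highest of the 3 days in each group. For Gria3 they were 10.69, 10.77 and 10.81 in WT, 10.44, 10.45 and 10.79 in KO, 10.38, 10.58 and 10.86 in HE and 10.66, 10.71 and 10.75 in TR, in increasing order of day in all 4 groups. For Grin2c they were 7.39, 7.53 and 7.53 in WT, 6.99, 7.10 and 7.15 in KO, 6.93, 7.30 and 7.58 in HE and 7.10, 7.29 and 7.38 in TR, with day 13 the lowest in all 4 groups. Grin1 was higher at day 15 than at day 13 in all 4 groups too, by 0.06 to 0.25. In all, 4 of 9 subunits were higher at day 15 than at day 13 in every group, against 12.8% of all genes, and 0 of 9 were lower in every group, against 9.38%. The shares of all genes with the orders over all 3 days given above were not computed.

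The slope of Grin2b was -0.02 ± 0.0336 per day (limma adjusted p = 0.831). Its values at days 13, 14 and 15 were 10.75, 10.51 and 10.57 in WT, 10.56, 10.43 and 10.46 in KO, 10.57, 10.40 and 10.53 in HE and 10.56, 10.62 and 10.73 in TR. The log2 value of Grin2a minus that of Grin2b, which shows change between arrays and not the ratio of the transcripts, went from 0.61 at day 13 to 0.98 at day 15 in WT, from 0.19 to 0.82 in KO, from 0.48 to 0.80 in HE and from 0.64 to 0.88 in TR. It was thus higher at day 15 than at day 13 in each of the 4 groups, and the share of other gene pairs with such a rise was not computed. At day 14 it read 0.97 in WT, 0.54 in KO, 0.54 in HE and 0.44 in TR, where it was below the day 13 value. The day 15 value of TR is that of TR replicate 6, which stood apart for Grin2a. In batch 1 the means (SD, n = 3) were 0.85 ± 0.210 for WT and 0.52 ± 0.313 for KO, with overlap. In batch 3 its means (SD, n = 3) were 0.66 ± 0.135 for WT arrays, 0.64 ± 0.126 for HE, 0.73 ± 0.119 for KO and 0.69 ± 0.0614 for TR, with overlap between all groups.

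Slopes were also compared between groups of a batch, with 1 array per day and group. No subunit was called for KO against WT (0% of all genes called, 6.09% with an unadjusted p under 0.05) or for TR against HE (0%, 4.8%). The lowest p was that of Gria3 in TR against HE, at -0.19 ± 0.0797 log2 per day with an unadjusted p of 0.0362 in limma and an adjusted p of 0.840. For Gria1 the slope of KO minus that of WT was 0.10 ± 0.0951 (interval -0.11 to 0.31). Intervals of this width do not show the slopes to be alike.

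**Figure D4:**
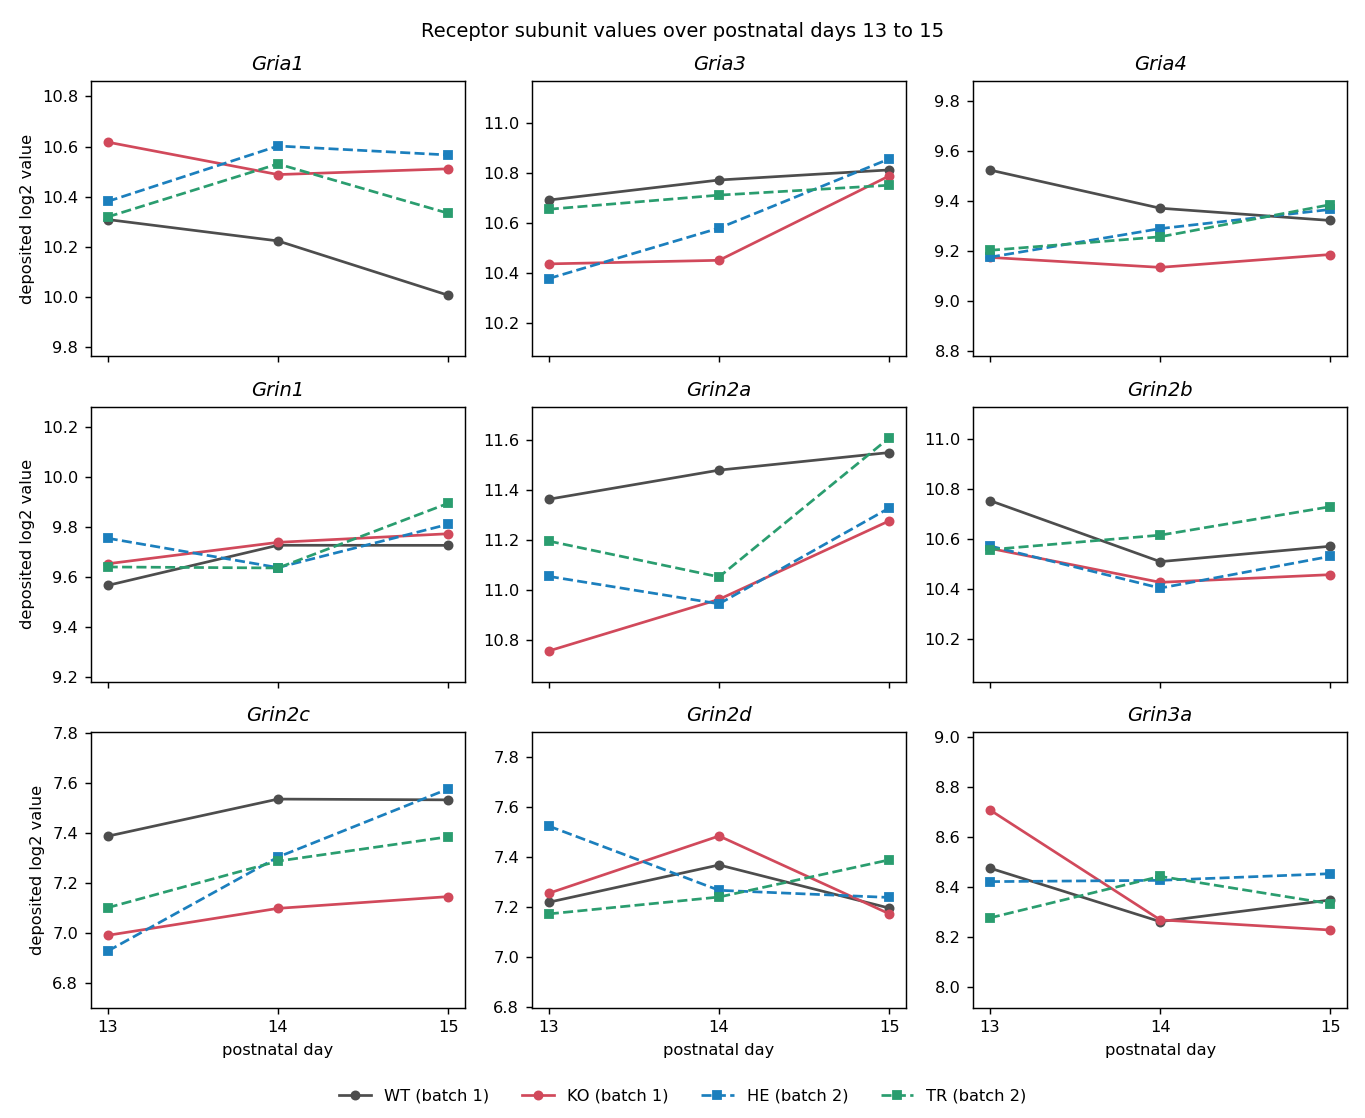
Deposited log2 value (vertical axis, an equal span in every panel) of each subunit at postnatal days 13, 14 and 15 (horizontal axis), 1 array per point, for WT and KO of batch 1 and HE and TR of batch 2. Lines join arrays of a group and not of an animal. Gria3, Grin1, Grin2a and Grin2c end higher at day 15 than at day 13 in all 4 groups.

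The subunits differed in how much their arrays scattered within a group and batch. The pooled SD was 0.203 for Grin3a, 0.199 for Grin2c and 0.186 for Grin2a, above 87.9%, 87.1% and 83.6% of all genes, whose median was 0.130. It was lowest for Grin1, at 0.0900. Grin3a ranged from 7.85 to 8.71 in KO, from 8.26 to 8.55 in WT, from 8.15 to 8.53 in HE and from 8.18 to 8.48 in TR, so the KO arrays spanned all others. Grin2d ranged from 7.15 to 7.48 in KO, from 7.20 to 7.37 in WT, from 7.22 to 7.52 in HE arrays and from 7.09 to 7.57 in TR. Neither gene separated any pair of groups within a batch.

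Whether subunits varied together from array to array was asked for all 36 pairs. The 24 arrays were used after the mean of each group and batch was subtracted. In batches 1 and 2 the arrays of a group are of different days, so change with day remains in these values. The permutations also exchanged those days, so their p values do not separate shared change with day from other covariation. Pearson's r ran from -0.620 to 0.656, with 21 pairs above 0 and 15 below. The only pair past adjustment over the 36 by Pearson's r was Grin1 with Grin2a, which encode GluN1 and GluN2A, the subunits of the mature forebrain receptor (r = 0.656, permutation p = 0.00068, adjusted 0.0245). Spearman's rho for it was 0.699 (permutation p = 0.00115, adjusted 0.0207), and r was 0.583 without the 2 arrays farthest from the median of Grin1. By batch the relation was uneven, with r = 0.878 over the 12 arrays of batches 1 and 2, which also differ in day, and r = 0.175 over the 12 day 14 arrays of batch 3. It thus rests on batches 1 and 2.

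Gria3 with Grin2a gave r = 0.626 (permutation p = 0.0041, adjusted 0.0738) and rho = 0.737 (permutation p = 0.00066, adjusted 0.0207), with r = 0.637 without the 2 farthest arrays, 0.690 in batches 1 and 2 and 0.502 in batch 3. Grin2a with Grin3a gave r = -0.620 (permutation p = 0.0147, adjusted 0.150) and rho = -0.549 (permutation p = 0.0175, adjusted 0.159), with r = -0.566 without the 2 farthest arrays, -0.546 in batches 1 and 2 and -0.842 in batch 3. The SD of Grin2a in batch 3 was 0.267 in KO, against 0.0536 in WT, 0.0482 in HE and 0.0236 in TR. The batch 3 values of r for both pairs with Grin2a thus rest largely on the KO arrays. Gria4 with Grin2b gave r = 0.616 (permutation p = 0.034, adjusted 0.204) and rho = 0.583 (permutation p = 0.033, adjusted 0.169), with r = 0.457 without the 2 farthest arrays. Gria1 showed no relation past adjustment with any other subunit.

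**Figure D5:**
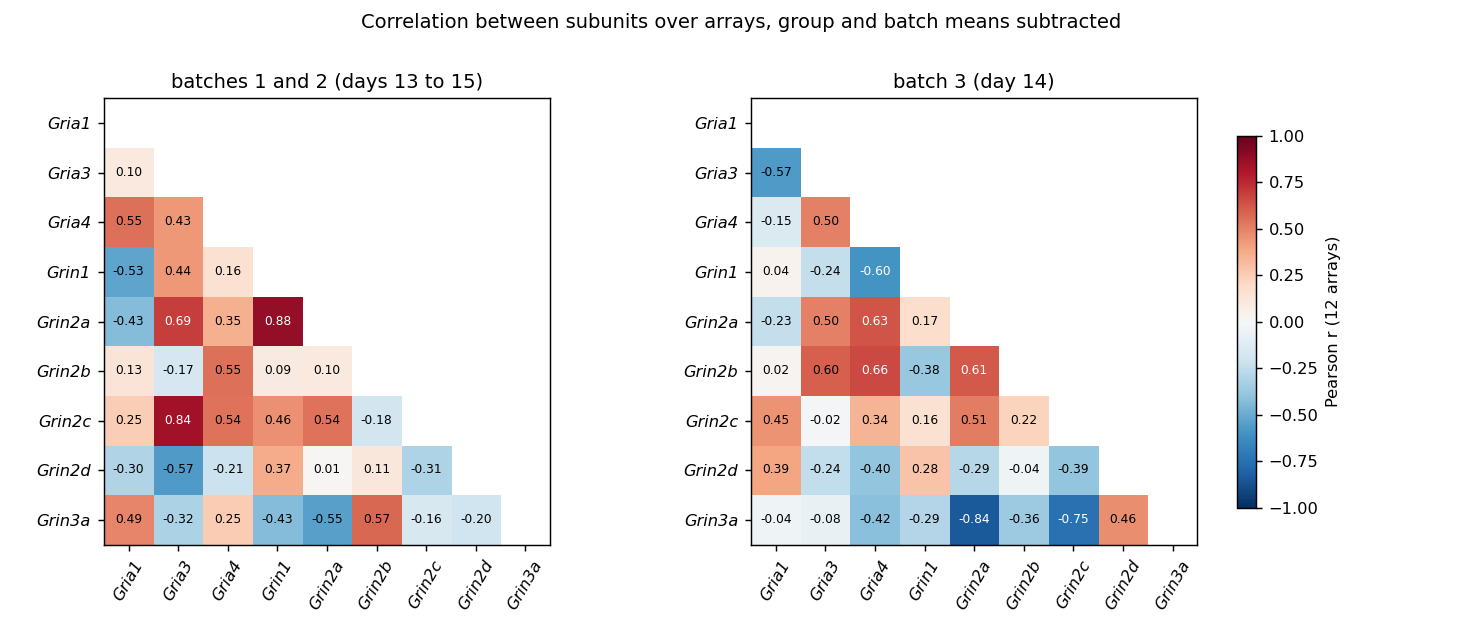
Pearson's r between each pair of subunits after group and batch means were subtracted, over the 12 arrays of batches 1 and 2 (left) and the 12 arrays of batch 3 (right), with colour from blue (negative) to red (positive). Grin1 with Grin2a is at 0.88 on the left and 0.17 on the right, and Grin2a with Grin3a is negative in both. Change with day remains in the values on the left, and most of the spread of Grin2a on the right lies in the KO arrays.

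The 3 genes whose pattern was most like that of Gria1 were found by Pearson's r over the 24 arrays after batch means were subtracted, given as a description. The first 2 were ENSMUSG00000019986 (r = 0.890) and ENSMUSG00000022861 (r = 0.881), which the table does not name. KO minus WT was 0.41 for the former (0.44 in batch 1 and 0.38 in batch 3) and 0.57 for the latter (0.68 and 0.46). The third gene, also unnamed, had r = 0.863 and a KO minus WT difference of 0.20 (0.26 in batch 1 and 0.15 in batch 3). The difference was thus larger than that of Gria1 in each batch for the first 2 and smaller for the third, and the correlation includes the difference between groups that the 3 genes share with Gria1.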

How the data were processed

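Each Ensembl gene has 1 deposited log2 value per array. Per the labels' protocols, RNA was DNase-treated, amplified from an oligo(dT) primer, biotin-labelled and hybridized. The submitters' processing notes name affy and RMA, which corrects background, equalizes arrays and summarizes probes. Not given in the sources used here are their versions, the assignment of probes to genes and any batch adjustment. The number of arrays limits the precision.

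All 18057 genes were fitted without a filter with limma 3.58.1 in R 4.3.3, groups and batches as fixed terms and an intensity trend (18 residual degrees of freedom, prior 6.04). Tests were two-sided with Benjamini-Hochberg adjustment, and a gene was called at an adjusted p under 0.05. Slopes used group and day. Correlations used 100000 permutations within group and batch, two-sided. The code was tested on simulated data. Alternatives were the batch term, scaling, dim genes, weights, day and left-out arrays.

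The members, gene lists and tests were chosen with earlier results of these data known. All subunits with a row are named, and so are the genes most like a called subunit (2 of 3 by ID). Lists of other pathway genes and cell type markers, by symbol, could not be applied, since IDs carry no names here. Arg1 itself was not checked for the same reason. The labels say 6 mice per group, and replicate numbers follow deposition order (1 to 3 in batch 3, 4 to 6 at days 13, 14 and 15).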

Additional observations from a re-analysis of the deposited data

Results flagged for a closer look

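In 40 sets of 6 arrays (each of the 9 subunits and the first principal component, in each of the 4 groups), 4 held an array whose gap to its nearest neighbour exceeded Dixon's critical share of the range of the set at 95%, where chance alone would give about 2. For Gria1, WT replicate 6 (batch 1, day 15) read 10.0057, and the next lowest WT array 10.22. It enters KO against WT, where Gria1 was called with any array left out. For Grin1, TR replicate 6 (batch 2, day 15) read 9.89502, and the next highest TR array 9.71. The same array read 11.6093 for Grin2a, with the next highest TR array at 11.26, so a single array gave both of these values. On the first principal component KO replicate 1 (batch 3) scored -27.9893, against -11.55 to -5.03 for the other KO arrays. The part of these arrays in the relation of Grin1 with Grin2a was not tested beyond the value without the 2 arrays farthest from the median of Grin1, r = 0.583.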

How the results depend on the processing

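Of 2259 values of single subunits under alternative settings, 2220 kept their side of the threshold, 22 lost a call, 17 gained one and 0 reversed a call, while 167 changed sign with a call on neither side. In KO against WT, 1 subunit was called, 2 (Gria1 and Grin2c) in the model lacking batch, with the dimmer 50% of genes left out, with array weights, with day as a covariate and with the replicate block of batch and postnatal day, 3 in batch 1 alone and 0 in batch 3 alone, where Gria1 was 0.33, and 1 to 3 with 1 array left out. The Grin2c adjusted p was 0.0475, 0.0385, 0.0324, 0.0269 and 0.0347 in the first 5 of these. In TR against KO, 0 subunits were called and Gria1 was -0.19 in the model lacking batch, -0.17 where batch was a random block, -0.29 with no intensity trend, -0.27 with array weights, -0.25 with day 14 arrays only, -0.25 with only the arrays of those 2 groups and -0.25 in batch 3 alone, and with 1 array left out it ran from -0.33 to -0.26 with 0 or 1 subunits called. The day slope had 3 called with the dimmer 50% of genes left out (Gria3, Grin2a and Grin2c) and 0 or 1 with 1 array left out (Grin2a, adjusted p 0.0301 without TR replicate 5). The causes were not tested. The replicate block, on same-day arrays that the labels tie to no shared animal, changed no other call of a subunit. Both scalings kept every call of a subunit.

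Counts over all genes ran from 176 (batch 3 alone) to 1709 in KO against WT, from 9 to 491 in KO against HE, from 0 (batch as a random block) to 685 in TR against KO, from 0 to 5 in TR against WT and in HE against WT, from 0 to 2 in TR against HE and from 0 to 462 for the day slope. Of 152 levels and Grin2a minus Grin2b means, 2 moved by 1 SD or more, both Grin3a in HE of batch 2 (8.41 under both scalings, 8.43 as deposited). With 3 arrays per group and batch, differences of the size of the standard errors cannot be seen.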
